A study of Mus musculus with 18 samples.

Results

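Embryonic stem (ES) cells lacking Cyp26a1 were compared with wild-type ES cells before any retinoic acid (RA) was added, using 6 of the 18 arrays of the series. Both genotypes belong to the mouse line AB1. The wild-type group holds 3 arrays of cells labelled as kept for 8 h in control medium with leukemia inhibitory factor (LIF). The knockout group holds 3 arrays of Cyp26a1-/- cells labelled in the same way. The make-up of the control medium is not stated in the labels. Arrays were chosen by their titles and paired by the replicate number in the title. Of the wild-type arrays only the third carries a number, and the other two were numbered 1 and 2 in accession order. Of the other 12 arrays, 6 hold cells of both genotypes given 100 nM RA for 8 h, and are used here as a set with no array in common. A further 2 hold control cells labelled as kept without LIF, 1 per genotype, and the rest received RA for 72 h. The labels name 1 knockout line and no second line, so whatever else sets that line apart from AB1 cannot be told apart from the loss of Cyp26a1. Treatments were repeated, but nothing in the labels says that the repeats came from different cultures. The main fit takes its spread from the 16 arrays of the 6 replicated groups, RA-treated cells included, and not from the control arrays alone. What its p-values measure is then the spread among those samples, and that spread may be technical.

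CYP26A1 is a cytochrome P450 that oxidises RA, the vitamin A derivative that binds nuclear receptors and switches on developmental genes. Medium with serum can carry retinoids, and cells without the enzyme clear RA more slowly. Mouse ES cells are held undifferentiated by LIF, which acts through STAT3, and untreated cultures usually contain a few cells that have moved toward primitive endoderm, the lineage that expresses Gata6 and lays down laminin and collagen.

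Each array gives a MAS5 signal, a linear intensity in arbitrary units, for 45101 probe sets. The median signal of the 6 arrays lay between 56.5 and 69.3 units, and 43.3% to 47.3% of probe sets were at or under the floor of 50 units used here. The ES cell markers Pou5f1, Sox2, Nanog, Zfp42, Dppa5a and Tdgf1 read 5205 to 37348 units on every array, with a summed level of 89845 to 102996 units in wild type and 106321 to 115724 in the knockout. Of 6 fibroblast feeder markers, Col1a1, Col1a2, Col3a1, Postn and Lum were under 100 units on all 6 arrays. The other marker, Thy1, was not, and read up to 717 units. The feeder markers summed to 507 to 833 units in wild type and 553 to 659 in the knockout. The 4 trophoblast markers Cdx2, Elf5, Krt7 and Tpbpa were under 100 units on all 6 arrays. Of 4 neural markers Neurog1 was under 100 units, and their sum was 1185 to 1358 units in wild type and 823 to 1133 in the knockout. Replicate 1 stood apart in the LIF-induced gene Socs3, a feedback inhibitor of STAT3. It read 367, 4484 and 3792 units on wild-type replicates 1 to 3 and 215, 6001 and 5722 on knockout replicates 1 to 3, against 3800.3 and 4551 on the wild-type and knockout arrays labelled without LIF. Both replicate 1 control arrays were thus low where the label says LIF, and both arrays labelled without LIF were high. The 16 measured genes of a LIF and STAT3 response list summed to 18492, 33300 and 40269 units on wild-type replicates 1 to 3. On knockout replicates 1 to 3 they summed to 20479.5, 42658 and 45322 units. The comparison was therefore repeated with the LIF labels exchanged within each genotype, and again without the replicate 1 control arrays.

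The targeted gene was near background in untreated cells of either genotype. Cyp26a1 on chromosome 19 read 17.5, 84.2 and 71.9 units on the wild-type arrays and 52.6, 9.81 and 23.3 on the knockout arrays. The genotypes overlapped, and the log2 difference, knockout minus wild type, was -0.40 ± 0.29 (limma adjusted p = 0.582). The value after ± is the standard error for 3 arrays per genotype, with the spread estimated over all 16 arrays of the fit. The position of the probe set relative to the disruption is unknown, and this level therefore does not check the knockout. Of the measured genes nearest to it, Exoc6, a subunit of the exocyst, read 794, 696 and 576 units in wild type and 982, 936 and 952 in the knockout and rose (0.49 ± 0.13, adjusted p = 0.0409). Cep55, which acts in the last step of cell division, rose too (0.59 ± 0.12, adjusted p = 0.0109). The homeobox gene Hhex (0.49 ± 0.14, adjusted p = 0.0597) and the membrane repair gene Myof (0.83 ± 0.33, adjusted p = 0.205) did not pass the threshold. Over the 414 tested genes of chromosome 19 the median was 0.47, and 87.2% were above 0. These rises are therefore not particular to the neighbours of Cyp26a1. Exoc6 was not called without wild-type replicates 2 and 3 or knockout replicates 1, 2 and 3, each left out alone (adjusted p = 0.0838 to 0.141), nor Cep55 without wild-type replicate 1 or knockout replicate 2, each left out alone (adjusted p = 0.0549 to 0.0568). Exoc6 was also not called with quantile normalization or both replicate 1 arrays left out, nor Cep55 with the mean of all probe sets or both replicate 1 arrays left out.

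Genes that handle retinoids or respond to them were set beside the share over all genes, of which 4.64% passed the adjusted threshold. These lists and the later ones were drawn up with earlier results of these data known. A list share above that of all genes is therefore no separate support. Of 15 tested RA-induced genes, among them Stra8, Rarb and Cdx1, 0 rose and 0 fell by limma, with a median log2 difference of 0.00 against -0.0024 over all 11387 genes tested. At an unadjusted p under 0.05, 1 was higher and 0 lower. Of 10 tested genes of retinoid metabolism and transport 0 rose and 1 fell. That gene was Fabp5, a carrier of fatty acids and RA in the cytoplasm, which read 3349.97, 3183 and 2303 units in wild type and 1772, 1167 and 1262 in the knockout. All 3 knockout arrays lay below all 3 wild-type arrays (-1.08 ± 0.17, adjusted p = 0.00236), and the call was kept with the LIF labels exchanged (adjusted p = 0.000362) and without both replicate 1 arrays (adjusted p = 0.00990). The other carriers, Crabp1 (-0.39 ± 0.26, adjusted p = 0.521) and Crabp2 (0.48 ± 0.22, adjusted p = 0.299), did not pass.

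The genotypes differed in 528 of the 11387 genes, 208 higher (1.83%) and 320 lower (2.81%) in the knockout, at a Benjamini-Hochberg adjusted p under 0.05. The median size was 0.64 for the higher genes and -0.85 for the lower ones, and 21 of the former and 114 of the latter differed at least 2-fold. For 525 of the 528 the genotypes did not overlap on any array, as was the case for 2175 (19.1%) of all genes tested. All 528 had the same sign in each of the 3 pairs, which for the 525 follows from the lack of overlap and is no separate support. Same-numbered arrays deviated together, and with the replicate number as a block 1069 genes (9.39%) were called, 458 higher (4.02%) and 611 lower (5.37%), including all 528. With the LIF labels exchanged 582 (5.12%) were called, 216 higher (1.90%) and 366 lower (3.22%), and 423 of the 528 were among them. Without both replicate 1 control arrays 139 (1.22%) were called, 56 higher (0.492%) and 83 lower (0.729%), of which 136 were among the 528. The count was 253 without knockout replicate 2, 307 without knockout replicate 3 and 297 without wild-type replicate 1. A fit of the 6 control arrays alone called 14 genes, 5 higher and 9 lower, of which 13 were among the 528, and 0 of the genes on the lists below.

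The same differences were present on other arrays. After 8 h of RA, on 6 arrays that none of the control values share, all 208 higher genes were again above 0 and all 320 lower genes below 0. Of these, 127 and 213 were called there. Both comparisons come from the same fit and share its estimate of each gene's spread. The calls after RA are therefore not independent of those in control cells. In that comparison 525 of all genes tested (4.61%) were called, 194 higher (1.70%) and 331 lower (2.91%). Over all genes tested, 71.0% of those above 0 and 73.4% of those below 0 in control cells kept their sign after RA. On the pair of arrays labelled without LIF, 1 per genotype and not part of the fit, 202 of the 208 (97.1%) and 310 of the 320 (96.9%) had the same sign, against 63.9% and 69.7% over all genes. An interaction term asked whether the genotype difference itself changed between control and RA-treated cells, and limma called 0 genes for it. There 211 genes had an unadjusted p under 0.05, and the smallest adjusted p was 1. With the block 0 were called, 367 had an unadjusted p under 0.05, and the smallest adjusted p was 0.728.

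**Figure D1:**
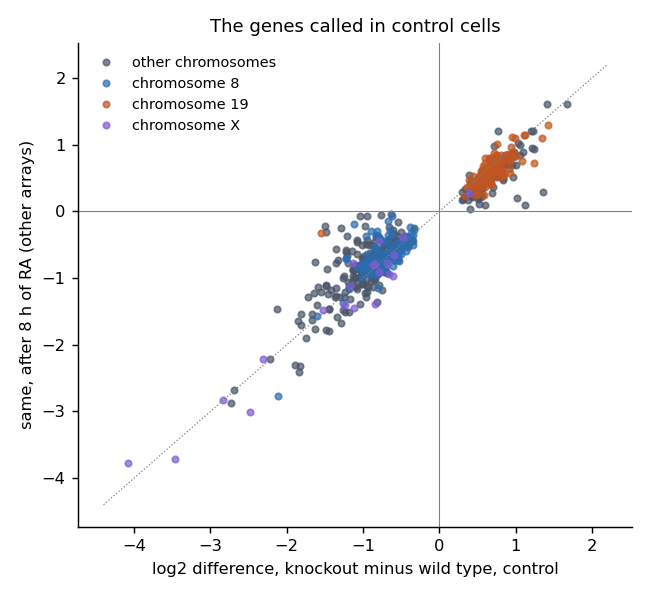
Each point is 1 of the 528 genes called in control cells, with the log2 difference in control cells on the horizontal axis and that after 8 h of RA, from other arrays, on the vertical axis. All 208 higher genes lie above the horizontal zero line and all 320 lower genes under it, and the dotted line marks equal differences.

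Much of the difference followed chromosomes. The 414 tested genes of chromosome 19 had a median log2 difference of 0.47, and that median was 0.45, 0.48 and 0.44 in the 3 replicate pairs. On that chromosome 126 genes (30.4%) rose and 1 fell. The 638 genes of chromosome 8 had a median of -0.25, with 110 (17.2%) lower and 1 higher. The other chromosomes had medians between -0.05 and 0.04. Of the 528 calls, those off chromosomes 8 and 19 were 81 higher and 209 lower, or 0.784% and 2.02% of the 10335 genes tested there. With both chromosomes left out before the adjustment 201 genes were called, 47 higher and 154 lower.

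**Figure D2:**
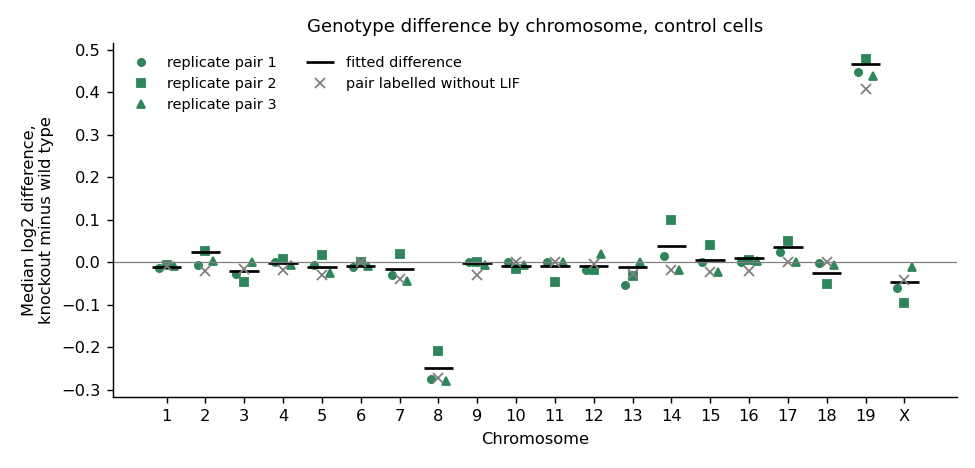
The median log2 difference, knockout minus wild type, of the tested genes of each chromosome is plotted for each replicate pair of control arrays, for the fitted difference (bar) and for the pair labelled without LIF (cross). Chromosome 19 stands at 0.47 and chromosome 8 at -0.25, and the fitted medians of the others lie between -0.05 and 0.04.

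Both chromosomes carried called genes of quite different tasks, and a few are given as examples. On chromosome 8 Palld, an actin cross-linker, read 1199, 591 and 439.9 units in wild type and 177, 143 and 150.2 in the knockout (-2.12 ± 0.36, adjusted p = 0.00359). Bbs2, a subunit of the BBSome that moves cargo in cilia, read 1382, 1770.2 and 1267 against 438, 484 and 524 units (-1.60 ± 0.19, adjusted p = 0.000432), and Ndufa13, a subunit of mitochondrial complex I, 10187, 9087 and 10800.00 against 6318, 6603 and 5509 units (-0.71 ± 0.10, adjusted p = 0.00172). None of these arrays overlapped between genotypes. On chromosome 19 the aminopeptidase gene Xpnpep1 read 4317, 4502 and 4528 units in wild type and 7131, 6996 and 6574 in the knockout (0.63 ± 0.07, adjusted p = 0.000432). Kif11, the kinesin that pushes spindle poles apart, rose by a similar amount (0.70 ± 0.11, adjusted p = 0.00263), as did Ndufv1, another complex I subunit (0.56 ± 0.09, adjusted p = 0.00220). A single called gene on each chromosome went the other way. Dusp5 on chromosome 19, a phosphatase that inactivates ERK in the nucleus, fell from 124, 175 and 228 units to 28.1, 78.9 and 29.6 (-1.55 ± 0.33, adjusted p = 0.0147). It was not called with the LIF labels exchanged (adjusted p = 0.0643) or without wild-type replicate 3 or knockout replicates 1 and 3, each left out alone (adjusted p = 0.0543 to 0.0609). Stox2 on chromosome 8, a winged-helix gene, rose (0.94 ± 0.23, adjusted p = 0.0317), a call lost when any 1 of the 6 arrays was left out (adjusted p = 0.0518 to 0.102) or the LIF labels were exchanged (adjusted p = 0.0920). Dusp5 was also not called with a floor of 100 units, dim genes kept in or both replicate 1 arrays left out, nor Stox2 with dim genes kept in, the mean of all probe sets or both replicate 1 arrays left out.

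The X chromosome held the 3 largest falls of all called genes, while the median of its 369 tested genes was -0.05. There 20 genes fell and 1 rose. The falls were 5.42% of the genes tested there, against 2.81% lower over all genes. In the chromosome order of tested genes, the 21 called genes formed 2 pairs of direct neighbours. The promoters of Wnk3 and Sh3bgrl, the X-linked genes that read near background on all knockout arrays, are shown because their signal was well above the floor in wild type and under it in the knockout. They are the 250 bases upstream of the first transcript start that RefSeq lists in assembly GRCm38.p6, both on the plus strand, with CG dinucleotides, the sites of DNA methylation, in capitals.
Wnk3 (chrX:151197828-151198077): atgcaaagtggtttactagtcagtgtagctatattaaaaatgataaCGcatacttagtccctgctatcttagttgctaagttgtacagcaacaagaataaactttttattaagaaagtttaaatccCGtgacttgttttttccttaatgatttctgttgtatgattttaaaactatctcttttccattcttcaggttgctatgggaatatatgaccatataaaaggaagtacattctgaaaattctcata
Sh3bgrl (chrX:109095157-109095406): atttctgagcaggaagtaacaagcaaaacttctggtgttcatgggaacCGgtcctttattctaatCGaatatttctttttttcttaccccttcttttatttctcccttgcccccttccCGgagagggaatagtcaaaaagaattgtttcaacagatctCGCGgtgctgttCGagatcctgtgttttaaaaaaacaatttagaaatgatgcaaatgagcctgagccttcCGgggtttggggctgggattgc
The Wnk3 stretch holds 2 CG dinucleotides and that of Sh3bgrl 7. Of the 20 X-linked genes that fell, 19 had a promoter in the table, with a median of 7, and the 304 other tested X-linked genes had a median of 12. Methylation was not measured.

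Wnk3, a kinase that controls chloride transport, read 1380.5, 457 and 967 units in wild type and 44.6, 30.3 and 2.93 in the knockout. All knockout arrays were under the floor, so the difference is a lower bound: at least 17-fold lower (-4.08 ± 0.38, adjusted p = 6.10e-05). Sh3bgrl, a small thioredoxin-like protein, read 228, 281 and 239 units against 11.2, 1.81 and 15.6, at least 4.96-fold lower (-2.31 ± 0.21, adjusted p = 6.10e-05). Both calls were kept in every alternative run over all genes, the fit of the 6 arrays alone included. Hmgn5, a nucleosome-binding protein, read 731, 621 and 498 units against 309, 254 and 219.8 (-1.24 ± 0.22, adjusted p = 0.00482), and Tspan6, a tetraspanin, 369, 476 and 499.7 against 239.9, 247 and 257 (-0.84 ± 0.17, adjusted p = 0.0104). Their genotypes did not overlap on any array.

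Another 3 X-linked falls were large but uneven among the wild-type arrays. Fmr1nb, a cancer and testis antigen next to the fragile X gene, read 1079, 1958 and 199.5 units in wild type and 75.1, 28 and 83.5 in the knockout. Klhl13, an adaptor of a cullin ubiquitin ligase, read 2068, 3854 and 453 units against 252, 189 and 208, and Mageb16, a melanoma antigen family member, 1199, 1785 and 298 against 106, 184 and 189.8. In all 3 genes wild-type replicate 3 was the lowest wild-type array, though still above every knockout array. The differences were -3.46 ± 0.79 (adjusted p = 0.020), -2.84 ± 0.62 (adjusted p = 0.0160) and -2.48 ± 0.65 (adjusted p = 0.0415). Fmr1nb was not called without wild-type replicates 1 and 2 or knockout replicate 2, each left out alone (adjusted p = 0.0760 to 0.0838), Klhl13 without wild-type replicates 1 and 2 or knockout replicates 2 and 3, each left out alone (adjusted p = 0.0518 to 0.0647) and Mageb16 without wild-type replicates 1 and 2 or knockout replicates 1, 2 and 3, each left out alone (adjusted p = 0.0827 to 0.160). Fmr1nb was also not called with a floor of 100 units, dim genes kept in or both replicate 1 arrays left out, nor Klhl13 with dim genes kept in or both replicate 1 arrays left out, nor Mageb16 with dim genes kept in, the mean of all probe sets, quantile normalization, chromosomes 8 and 19 left out or both replicate 1 arrays left out. Of 10 tested X-linked melanoma antigen and testis genes these 2, Mageb16 and Fmr1nb, fell, 0 rose, and the median was -0.39. That is 20% of the list, against 2.81% lower over all genes. With the block 5 fell, and without both replicate 1 arrays or with dim genes kept in 0. The single X-linked rise was that of Ftsj1, a transfer RNA methyltransferase (0.39 ± 0.10, adjusted p = 0.0317, and 0.0792 with the LIF labels exchanged). It was not called without wild-type replicates 1 and 2 or knockout replicates 1, 2 and 3, each left out alone (adjusted p = 0.0774 to 0.121). Ftsj1 was also not called with the mean of all probe sets, quantile normalization, chromosomes 8 and 19 left out or both replicate 1 arrays left out. Of 8 tested genes of X inactivation and dosage, 0 rose and 0 fell by limma, 0 at an unadjusted p under 0.05, with a median of 0.02.

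Transcripts of the Y chromosome were present in both genotypes. Eif2s3y, a translation initiation factor, read 3019, 3349 and 1703 units in wild type and 3054, 3095 and 2368 in the knockout, and the groups overlapped (0.13 ± 0.26, adjusted p = 0.906). Uty, a demethylase relative, did so too (-0.18 ± 0.29, adjusted p = 0.868). Uba1y, the Y-linked ubiquitin-activating enzyme, fell from 583, 1182 and 630.5 units to 189, 291 and 264 with no overlap (-1.63 ± 0.30, adjusted p = 0.00617).

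**Figure D3:**
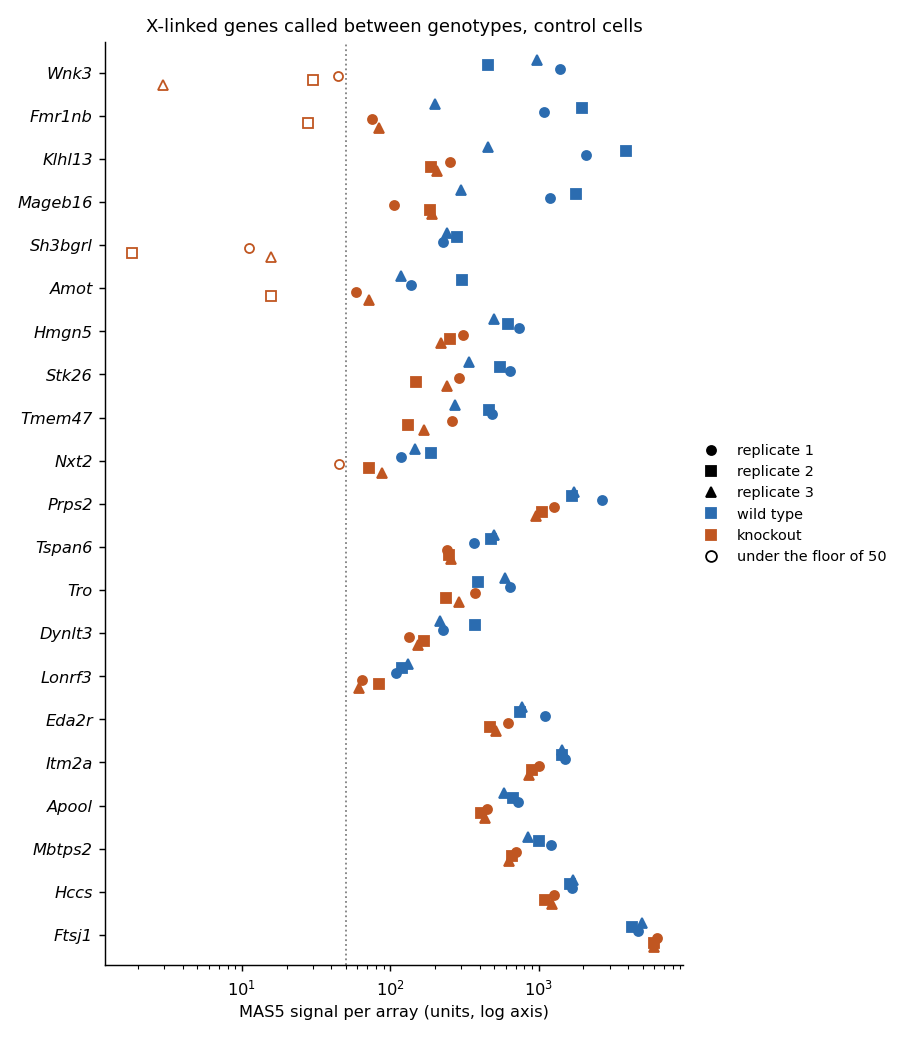
The signal of every X-linked gene called between genotypes is plotted per array on a log axis, with symbols for the replicate and colours for the genotype, and open symbols under the floor of 50 units (dotted line). Wnk3 and Sh3bgrl lie under the floor on all 3 knockout arrays, and Ftsj1 is the only one higher in the knockout.

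Off chromosomes 8 and 19 the median size was -0.98 for the 209 falls and 0.60 for the 81 rises. Lncenc1, a long non-coding RNA of ES cells, read 1115, 1084 and 509 units in wild type and 123, 119.8 and 143 in the knockout. The knockout arrays were close together at the low end, and the difference was -2.73 ± 0.40 (adjusted p = 0.00167). Slc15a2, a peptide transporter, read 159.6, 241 and 189.6 units against 37.3, 65.8 and 30.6 (-1.82 ± 0.23, adjusted p = 0.000729). Sfmbt2, an imprinted Polycomb-group gene, read 2388, 1231 and 1674 against 379, 503 and 598 (-1.81 ± 0.30, adjusted p = 0.00342). Neither gene had an array that overlapped. Aass, which starts lysine breakdown, read 1907, 1719 and 349.9 units in wild type and 125, 220.3 and 156 in the knockout (-2.68 ± 0.66, adjusted p = 0.0293), with wild-type replicate 3 far under the other 2 wild-type arrays. It was not called without wild-type replicates 1 and 2 or knockout replicates 1, 2 and 3, each left out alone (adjusted p = 0.0638 to 0.125). Aass was also not called with dim genes kept in, chromosomes 8 and 19 left out or both replicate 1 arrays left out, nor Slc15a2 with the mean of all probe sets, nor Sfmbt2 with both replicate 1 arrays left out.

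A smaller set of genes was called in each of the 17 alternatives over all genes other than the fit of the 6 arrays alone: 99 of the 528, of which 32 lie on chromosome 19, 18 on chromosome 8 and 49 elsewhere. Of those 49, 41 were lower and 8 higher in the knockout. The genes of this set that follow were chosen after their values were seen, unless the rule for named genes holds them. Phgdh, the enzyme that commits glycolytic carbon to serine, read 4699.6, 3823 and 4625 units in wild type and 1859, 1575 and 1660.2 in the knockout. Suclg2, a subunit of succinyl-CoA synthetase in the citric acid cycle, read 4242, 3489.6 and 3689 units against 1679, 1468 and 1666. In both genes each genotype's arrays lay close together and far from the other's (-1.37 ± 0.13 and -1.24 ± 0.11, adjusted p = 6.10e-05 for each). Both were also called in the 6 arrays alone.

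Further genes of that set serve as examples. B2m, the light chain of class I antigen-presenting molecules, read 595, 696 and 539.6 units in wild type and 169, 207 and 234 in the knockout (-1.59 ± 0.24, adjusted p = 0.00182). Anxa3, a calcium-dependent phospholipid binder, fell from 247, 323 and 269.9 to 116, 86.2 and 108 units (-1.44 ± 0.21, adjusted p = 0.00172), and Lgals1, a galactoside-binding lectin, from 6039, 5657 and 5219 to 3139, 3538 and 3462 (-0.74 ± 0.10, adjusted p = 0.00104). Plin2, which coats lipid droplets, read 543, 623 and 642 units against 321, 300.2 and 316 (-0.94 ± 0.17, adjusted p = 0.00618). Abhd5, the activator of triglyceride lipase, fell as well (-0.89 ± 0.15, adjusted p = 0.00371), as did Me1, a malic enzyme that supplies NADPH (-0.72 ± 0.14, adjusted p = 0.00821), and Ptgr1, which inactivates prostaglandins and leukotrienes (-1.18 ± 0.13, adjusted p = 0.000268). Ndn, an imprinted growth suppressor, fell from 960.2, 905 and 575 to 439, 246 and 332 units (-1.27 ± 0.22, adjusted p = 0.00505). Selenop, the selenium carrier of plasma, fell from 301, 185 and 153 to 106, 45.7 and 38.3 units (-1.67 ± 0.31, adjusted p = 0.00652), and Ccn1, a matrix-bound growth regulator, from 269, 501 and 276 to 107, 104 and 93.1 (-1.72 ± 0.27, adjusted p = 0.00236).

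**Figure D4:**
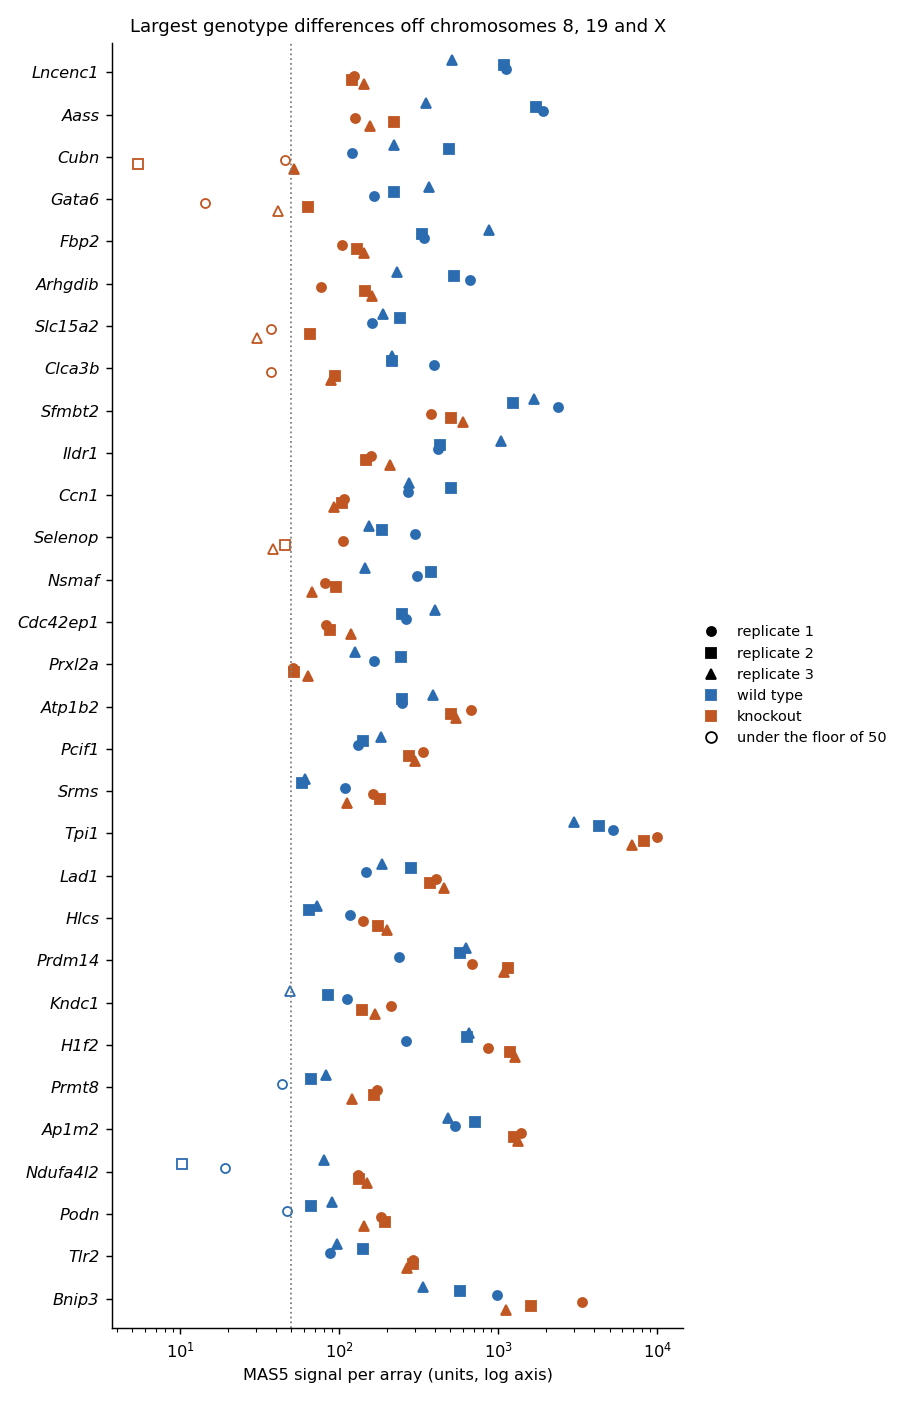
The signal per array, on a log axis, is plotted for the 15 largest falls (top) and the 15 largest rises (bottom) among called genes off chromosomes 8, 19 and X whose genotypes do not overlap. Colours mark the genotype, symbols the replicate, and open symbols lie under the floor of 50 units; wild-type replicate 3 of Aass reads lower than the other 2 wild-type arrays.

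Gata6, Cubn and Amn, genes of endoderm, fell in the knockout. The transcription factor Gata6, which specifies primitive endoderm, read 165, 220.2 and 369 units in wild type and 14.4, 63.9 and 41.2 in the knockout. No array overlapped, and Gata6 fell (-2.13 ± 0.33, adjusted p = 0.00236). The block gave adjusted p = 0.000209, the exchanged LIF labels 0.0276 and the arrays without replicate 1 0.0168. Cubn, the endocytic receptor of visceral endoderm, read 121, 487 and 219.5 units in wild type and 45.7, 5.45 and 51.6 in the knockout (-2.21 ± 0.52, adjusted p = 0.0232). Its partner Amn read 97.7, 166 and 167 against 42.3, 31.2 and 50.7 units (-1.47 ± 0.33, adjusted p = 0.0188). Gata6 was not called with a floor of 100 units or the mean of all probe sets, nor Cubn with a floor of 100 units, dim genes kept in or the mean of all probe sets, nor Amn with a floor of 100 units, dim genes kept in or both replicate 1 arrays left out. With a floor of 100 units the difference of Gata6 was -1.25, and with the mean of all probe sets -0.97. Cubn was not called with the LIF labels exchanged (adjusted p = 0.144) or without wild-type replicate 2 or knockout replicates 1, 2 and 3, each left out alone (adjusted p = 0.0624 to 0.0946), and Amn was not called without wild-type replicates 2 and 3 or knockout replicates 1, 2 and 3, each left out alone (adjusted p = 0.0526 to 0.0691). Dab2, an endocytic adaptor of the same cells, read 143, 667 and 372 units in wild type and 81.8, 101 and 55.8 in the knockout. Its difference of -2.09 ± 0.60 missed the threshold (adjusted p = 0.0626, and 0.00745 with the block). In bulk RNA, fewer cells of a type and less RNA per cell cannot be told apart.

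The 6 endoderm markers Gata4, Gata6, Sox17, Sox7, Dab2 and Lama1 were all above 100 units on at least 1 array. Their summed signal was 877, 4046 and 3436 units on wild-type replicates 1 to 3 and 459.5, 2390.5 and 2148 on the knockout arrays. In both genotypes replicate 1 had the lowest sum, and within each pair the knockout sum was below the wild-type sum. Lama1, a laminin chain, read 410.1, 2555 and 2129.6 units in wild type and 272, 1875 and 1811 in the knockout, and the groups overlapped (-0.42 ± 0.66, adjusted p = 0.862). Their part in the falls was not tested.

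By list, 1 of 8 tested endoderm transcription factors fell and 1 rose, with a median of -0.31. Together they are 25% of the list, against 4.64% over all genes. The riser was Eomes, a T-box factor shared by endoderm, streak and trophectoderm, at 102, 123 and 131 units in wild type and 331, 197 and 189 in the knockout (0.97 ± 0.26, adjusted p = 0.0463), a call lost when any 1 of the 6 arrays was left out (adjusted p = 0.0578 to 0.180) or the LIF labels were exchanged (adjusted p = 0.119). Eomes was also not called with log2 of the signal plus 32, dim genes kept in, the mean of all probe sets, chromosomes 8 and 19 left out or both replicate 1 arrays left out. Of 8 tested genes of visceral endoderm absorption and secretion 2 fell, 0 rose and the median was -0.56. That is 25% of the list, against 2.81% lower over all genes. Of these 8, 0 were called with a floor of 100 units, with dim genes kept in, or without knockout replicate 1, knockout replicate 3 or wild-type replicate 2, and 1 without both replicate 1 arrays. Of 12 genes of basement membrane and endoderm adhesion 3 fell (25%), 0 rose and the median was -0.34. These were Lamb1, a laminin chain (1348, 2569 and 1524 against 782, 836 and 559 units; -1.28 ± 0.29, adjusted p = 0.0177), Serpinh1, the collagen chaperone (-1.14 ± 0.27, adjusted p = 0.0236), and P4ha2, a collagen prolyl hydroxylase (-1.23 ± 0.24, adjusted p = 0.00957). Lamb1 was not called without wild-type replicate 2 or knockout replicate 3, each left out alone (adjusted p = 0.0736 to 0.0805), and Serpinh1 without wild-type replicate 3 or knockout replicates 1 and 2, each left out alone (adjusted p = 0.0511 to 0.0882). Without both replicate 1 arrays, or with dim genes kept in, 1 of the 12 was called.

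Of 24 tested pluripotency genes 2 rose (8.33%, against 1.83% higher over all genes) and 0 fell, and the median was 0.11. Pou5f1, the core pluripotency factor also known as Oct4, read 14308, 15815 and 11434 units in wild type and 13334, 15753 and 10982 in the knockout (-0.06 ± 0.15, adjusted p = 0.932). Nanog (0.31 ± 0.20, adjusted p = 0.510) and Sox2 (0.18 ± 0.12, adjusted p = 0.544) did not pass either. Prdm14, a repressor that protects naive pluripotency and germ cell fate, rose from 239, 578 and 624 units to 686, 1151 and 1079 (1.10 ± 0.30, adjusted p = 0.0477). It was not called without wild-type replicate 1 or knockout replicates 2 and 3, each left out alone (adjusted p = 0.149 to 0.188). Tdgf1, the coreceptor of Nodal, rose (0.50 ± 0.13, adjusted p = 0.0388) but was not called without wild-type replicates 1 and 3 or knockout replicates 2 and 3, each left out alone (adjusted p = 0.060 to 0.175). Prdm14 was also not called with a floor of 100 units, dim genes kept in, the mean of all probe sets or chromosomes 8 and 19 left out, nor Tdgf1 with a floor of 100 units, dim genes kept in, the mean of all probe sets, chromosomes 8 and 19 left out or both replicate 1 arrays left out. Of the 24, 0 were called with a floor of 100 units, the mean of all probe sets, dim genes kept in, chromosomes 8 and 19 left out, or without knockout replicate 2, knockout replicate 3 or wild-type replicate 1. Of 15 LIF and STAT3 response genes 0 rose and 0 fell by limma, with 1 higher and 0 lower at an unadjusted p under 0.05 and a median of 0.14. With the block 1 of them rose.

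The antagonists of Nodal fell while Nodal itself did not pass the threshold. Of 17 tested genes of the Nodal and activin pathway 1 rose, Tdgf1, and 2 fell, with a median of -0.14. The called members are 17.6% of the list, against 4.64% over all genes. Lefty1, a secreted inhibitor that Nodal signalling induces, read 1058, 1354 and 1241 units in wild type and 625, 344 and 506 in the knockout. The groups were well apart (-1.34 ± 0.19, adjusted p = 0.00150; 0.000383 after 8 h of RA, where the difference was -1.59 ± 0.19). Lefty2, its neighbour and close relative, read 355, 417 and 800.3 against 229.7, 189.6 and 164 units (-1.35 ± 0.30, adjusted p = 0.0183). It was not called without wild-type replicate 3 or knockout replicates 2 and 3, each left out alone (adjusted p = 0.0620 to 0.0754) or with dim genes kept in. Of the 17, 1 was called with dim genes kept in or without knockout replicate 2 or 3. The ligand Nodal read 1573, 1426 and 1389 units against 1512, 1022 and 1294, with overlap (-0.21 ± 0.14, adjusted p = 0.534).

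Of 20 tested growth inhibitors and p53 targets 5 fell (25%, against 2.81% lower over all genes) and 0 rose, with a median of -0.46, and the block gave 8 falls and 2 rises. Ccng1, a cyclin that p53 induces, read 6523, 6470.1 and 4164 units in wild type and 3421, 2542 and 2704 in the knockout (-0.97 ± 0.19, adjusted p = 0.00875). No array overlapped, and Ccng1 was the 1 member still called without both replicate 1 arrays (adjusted p = 0.0476). Perp, a p53 target of cell junctions, fell from 2056, 2028 and 1976 to 732, 1089 and 1245 units (-1.02 ± 0.22, adjusted p = 0.0137), and Zmat3, an RNA-binding p53 target, from 2008, 1620.2 and 1742 to 1405, 1035 and 1132 (-0.59 ± 0.13, adjusted p = 0.0188). Cdkn2b, the p15 inhibitor of CDK4 and CDK6, fell (-1.23 ± 0.29, adjusted p = 0.0264). Cdkn1c, the imprinted p57 inhibitor, named after its values were seen, read 3594, 852 and 2133 units against 889, 343 and 459, the replicates of wild type lying far apart (-1.85 ± 0.45, adjusted p = 0.0278). Cdkn1a, the p21 inhibitor, did not pass (-0.40 ± 0.18, adjusted p = 0.282). With the LIF labels exchanged Cdkn2b was not called (adjusted p = 0.0636). Calls were lost for Perp without knockout replicate 1 (adjusted p = 0.0568), for Zmat3 without wild-type replicate 1 or knockout replicates 2 and 3, each left out alone (adjusted p = 0.0716 to 0.101), for Cdkn2b without wild-type replicates 1 and 3 or knockout replicates 1, 2 and 3, each left out alone (adjusted p = 0.0515 to 0.116) and for Cdkn1c without wild-type replicates 1 and 3 or knockout replicates 2 and 3, each left out alone (adjusted p = 0.0733 to 0.135). Cdkn2b was also not called with a floor of 100 units, log2 of the signal plus 32, dim genes kept in or both replicate 1 arrays left out, nor Perp with dim genes kept in or both replicate 1 arrays left out, nor Cdkn1c with dim genes kept in or both replicate 1 arrays left out.

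Ddx4 and Piwil2 of the germ line fell as well. Ddx4, the RNA helicase Vasa, read 755, 738 and 549 units in wild type and 325, 286 and 288 in the knockout, with no overlap (-1.17 ± 0.16, adjusted p = 0.00150). Piwil2, a partner of piRNAs, read 367, 412 and 349.9 against 174, 224 and 209 units (-0.90 ± 0.18, adjusted p = 0.0103, and 0.0990 without both replicate 1 arrays). Of 14 tested genes of germ cells and meiosis these 2 fell (14.3%, against 2.81% lower over all genes), 0 rose and the median was -0.53.

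Among the genes that rose off chromosomes 8 and 19, Bnip3, Tpi1, Pfkp and Ndufa4l2 belong to glycolysis and the response to low oxygen. The promoters of the called members Bnip3, Pfkp and Tpi1 are shown because the low-oxygen factor HIF binds the letters ACGTG or GCGTG, which were searched on both strands and are in capitals. Each is the 250 bases upstream of the first start listed by RefSeq in GRCm38.p6, on the minus strand, written 5' to 3' along the gene.
Bnip3 (chr7:138909507-138909756): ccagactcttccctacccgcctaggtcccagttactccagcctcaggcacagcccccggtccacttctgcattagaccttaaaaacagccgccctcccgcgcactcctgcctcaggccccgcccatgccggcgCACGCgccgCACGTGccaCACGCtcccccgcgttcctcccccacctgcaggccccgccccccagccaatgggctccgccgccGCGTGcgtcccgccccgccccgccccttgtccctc
Pfkp (chr13:6648772-6649021): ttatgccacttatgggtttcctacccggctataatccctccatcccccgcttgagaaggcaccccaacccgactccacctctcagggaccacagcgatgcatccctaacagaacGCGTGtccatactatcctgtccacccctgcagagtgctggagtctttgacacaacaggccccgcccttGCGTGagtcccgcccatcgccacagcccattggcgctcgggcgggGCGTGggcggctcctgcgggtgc
Tpi1 (chr6:124814159-124814408): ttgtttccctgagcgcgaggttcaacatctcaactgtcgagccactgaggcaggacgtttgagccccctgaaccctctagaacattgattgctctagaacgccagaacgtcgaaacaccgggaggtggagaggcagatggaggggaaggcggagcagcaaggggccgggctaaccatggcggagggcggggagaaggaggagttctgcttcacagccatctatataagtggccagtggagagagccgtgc
The Bnip3 stretch holds 5 matches, of which 2 overlap on opposite strands, that of Pfkp 3 and that of Tpi1 0. Of the tested members of the list, 19 of 23 matched promoters (82.6%) hold a match, as do 57.9% of the 9272 tested genes matched and 38.6% of all 27025 promoters in the table. Of the members that rose, 3 of 4 matched promoters (75%) hold one, and those of P4ha2 and Ddit4, which fell, hold 3 and 2. A match is a description of letters, and binding was not measured.

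Bnip3, a mitophagy receptor induced by low oxygen, read 983, 572 and 336 units on the wild-type arrays and 3379, 1605 and 1123 on the knockout arrays. The rise within replicate pairs 1 to 3 was 1.78, 1.49 and 1.74 on the log2 scale, and that of the fit was 1.67 ± 0.41 (adjusted p = 0.0293, and 0.00253 with the block). Tpi1, the glycolytic triosephosphate isomerase, read 5286, 4281 and 2972 units in wild type and 9978, 8282 and 6877 in the knockout (1.03 ± 0.20, adjusted p = 0.00803). Its call was kept without each array in turn (adjusted p = 0.00716 to 0.0358), and on the 8 h RA arrays the difference was 1.02 ± 0.20 (adjusted p = 0.00849). Pfkp, the platelet-type phosphofructokinase, read 3034, 3326 and 3767 against 5206, 5282 and 4302 units (0.55 ± 0.11, adjusted p = 0.0104). Ndufa4l2, which lowers complex I activity in low oxygen, read 19.1, 10.2 and 80 against 131, 134 and 148 units (1.23 ± 0.26, adjusted p = 0.0140). Neither was called with the LIF labels exchanged (adjusted p = 0.205 and 0.308). Bnip3 was not called without wild-type replicates 2 and 3 or knockout replicates 1 and 2, each left out alone (adjusted p = 0.0695 to 0.120), Pfkp without wild-type replicate 1 or knockout replicate 2, each left out alone (adjusted p = 0.0542 to 0.0582) and Ndufa4l2 without wild-type replicates 1 and 2 or knockout replicate 3, each left out alone (adjusted p = 0.0558 to 0.0620). Bnip3 was also not called with dim genes kept in or chromosomes 8 and 19 left out, nor Pfkp with the mean of all probe sets or both replicate 1 arrays left out, nor Ndufa4l2 with both replicate 1 arrays left out.

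Of the 25 tested members of the hypoxia and glycolysis list 5 rose, 2 fell and the median was 0.28. The called members are 28% of the list, against 4.64% over all genes. The fifth riser, Pgam1, a phosphoglycerate mutase, lies on chromosome 19 (0.43 ± 0.09, adjusted p = 0.0137, against that chromosome's median of 0.47) and was not called without wild-type replicate 1 or knockout replicates 1 and 2, each left out alone (adjusted p = 0.0524 to 0.0624). P4ha2 and Ddit4, both known targets of the same response, went the other way. Ddit4, an inhibitor of mTORC1, read 635, 500.05 and 668 units in wild type and 395, 306 and 302 in the knockout (-0.85 ± 0.19, adjusted p = 0.020). It was not called without wild-type replicates 1 and 3 or knockout replicates 2 and 3, each left out alone (adjusted p = 0.0656 to 0.0855). Ddit4 was also not called with dim genes kept in or both replicate 1 arrays left out, nor Pgam1 with both replicate 1 arrays left out. Other familiar targets did not pass: Vegfa (0.02 ± 0.30, adjusted p = 0.997), Slc2a1 (0.46 ± 0.20, adjusted p = 0.269), Ldha (0.28 ± 0.10, adjusted p = 0.133) and Pgk1 (0.34 ± 0.17, adjusted p = 0.336). With the block 9 rose and 2 fell, with the LIF labels exchanged 3 and 2, and without both replicate 1 arrays 2 and 1; without knockout replicate 2 or wild-type replicate 1, 3 of the 25 were called. The labels state no oxygen level, and its part in this result was not tested.

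Tlr2, Ap1m2, Cd68 and Podn rose as well. Tlr2, the receptor for bacterial lipoproteins, read 87.9, 142 and 96.2 units in wild type and 290.3, 289 and 266 in the knockout (1.41 ± 0.19, adjusted p = 0.00135). Ap1m2, an adaptor subunit that sorts membrane proteins in epithelial cells, read 532, 715 and 480.4 against 1383, 1261 and 1327 units (1.22 ± 0.18, adjusted p = 0.00167). Both had knockout arrays within a narrow range above every wild-type array. Cd68, a lysosomal membrane glycoprotein chosen after its values were seen, rose from 693, 614 and 610.2 to 1383, 1046 and 1013 units (0.83 ± 0.15, adjusted p = 0.00484). Podn, a proteoglycan of the matrix, read 47, 66 and 90.7 units against 183, 193 and 143 in control cells (1.36 ± 0.28, adjusted p = 0.0118, but 0.060 with the LIF labels exchanged). After 8 h of RA its difference was 0.29 ± 0.28 (adjusted p = 0.707), and the change between conditions was not called (interaction adjusted p = 1). Podn was not called without wild-type replicate 1 or knockout replicate 2, each left out alone (adjusted p = 0.0576 to 0.0581). Podn was also not called with a floor of 100 units or both replicate 1 arrays left out.

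Of 10 tested genes of cytosolic RNA sensing and innate immunity 1 rose, Tlr2, and 1 fell, Bst2, an interferon-induced tether of viruses on chromosome 8 (-0.80 ± 0.22, adjusted p = 0.0464), which was not called with the LIF labels exchanged (adjusted p = 0.0514) or without wild-type replicates 1 and 2 or knockout replicates 1, 2 and 3, each left out alone (adjusted p = 0.101 to 0.196). Of 9 neural genes 1 fell, Neurod1, a neuronal bHLH factor (-1.31 ± 0.31, adjusted p = 0.0255), which was not called without wild-type replicates 1 and 2 or knockout replicates 1, 2 and 3, each left out alone (adjusted p = 0.0594 to 0.117). Bst2 was also not called with a floor of 100 units, dim genes kept in, the mean of all probe sets, quantile normalization or both replicate 1 arrays left out, nor Neurod1 with dim genes kept in, quantile normalization or both replicate 1 arrays left out. Eomes was the 1 riser of 5 primitive streak and of 10 trophectoderm genes. These counts are 20%, 11.1%, 20% and 10% of the lists in that order, against 4.64% over all genes. By limma 0 rose and 0 fell of 9 genes of DNA methylation and demethylation, 12 immediate early and stress genes, 7 fibroblast feeder markers and 2 Y-linked genes, a list that does not hold Uba1y. At an unadjusted p under 0.05 these lists had 1, 2, 1 and 0 genes higher and 1, 2, 1 and 0 lower, in the same order. With the block 1, 3, 1 and 0 were called. The 21 lists held 231 tested genes, of which 30 were called (13.0%), against 4.64% over all genes. The lists were drawn up with earlier results in view, and nothing is read from that share or from the shares of single lists.

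**Figure D5:**
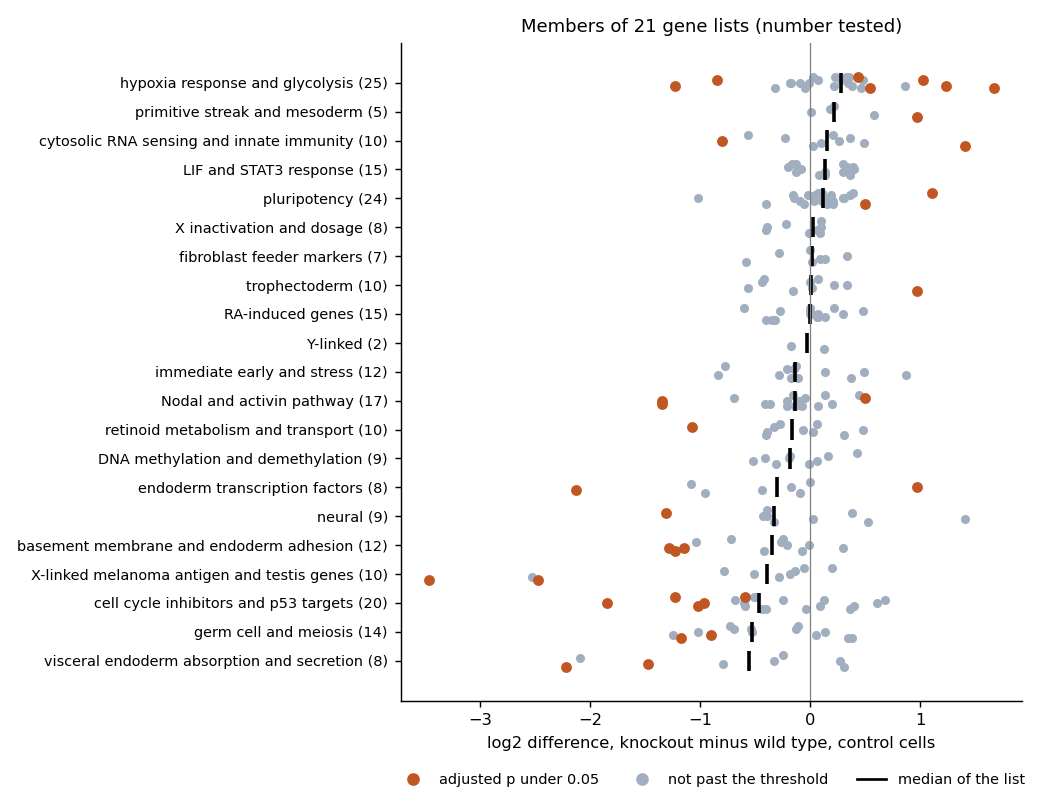
Each point is a tested member of 1 of the 21 gene lists, placed by its log2 difference, knockout minus wild type, in control cells; orange marks an adjusted p under 0.05 and the bar is the list median. Lists are ordered by median, from 0.28 for hypoxia response and glycolysis to -0.56 for visceral endoderm absorption and secretion.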

How the data were processed

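Total RNA was measured on single-colour Affymetrix arrays, 1 per sample; per the labels' protocols it was amplified from the 3' end and labelled with biotin. The authors deposited a linear signal intensity per probe set, made with MAS5 per the submitters' processing notes; its version is not given in the sources used here. The trimmed mean of every array, with 2% cut from both ends, was already 500. Each was rescaled to that mean, values under 50 units were set to 50, and log2 was taken. The probe set with the highest mean stood for a gene, named through GEO's platform annotation: 34945 probe sets had 1 symbol, 932 several and 9224 none. Of 18193 genes, 18032 matched a RefSeq record of GRCm38.p6, used for chromosomes, gene order and promoters. A gene was tested when 2 arrays reached 100 units, which left 11387.

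Differences were fitted with limma 3.58.1 in R 4.3.3 (lmFit, eBayes with trend) over the 16 arrays of the 6 replicated groups, which leaves 10 residual degrees of freedom, with Benjamini-Hochberg adjustment over all genes. All adjusted p-values are two-sided. Values after ± are standard errors. Deviations from the group means correlated at 0.50, 0.28 and 0.41 between arrays of the same number, so the numbers were taken to pair the arrays. Crossed numbers gave -0.34 to -0.03, partly because deviations within a group cancel out. Both replicate 1 control arrays also read low in Socs3. The correlations cannot tell pairing from a treatment difference shared by those arrays. The main fit held group means only and no replicate block. Its standard errors and adjusted p-values thus leave the pairing out, and results with the block are named as such. The block gives each replicate number the same effect in all 6 groups, while the correlations were computed for the control arrays only. Wild-type numbers 1 and 2 rest on accession order, and the block was also run with them exchanged. No 2 arrays held identical values. Arrays carry no count depth, and their number limits the precision.

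The rule named Cyp26a1, Socs3, the 2 nearest measured neighbours of Cyp26a1 on each side, the largest rises and falls without overlap (10 of each over all genes, 15 off chromosomes 8, 19 and X, 5 on each of these), and up to 4 called members per list. A part of these genes is described. The members and the 21 lists were chosen with earlier results of these data known.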

Additional observations from a re-analysis of the deposited data

Results flagged for a closer look

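Prxl2a, a peroxiredoxin-like gene on chromosome 14, read 133 units on the knockout array labelled without LIF, which is not part of the main fit. It read 51.2, 52.1 and 63.5 units on the knockout control arrays. The wild-type array labelled without LIF read 219.9 units, beside 165, 244 and 126 units on the wild-type control arrays. The labels of these arrays go against Socs3, and the cause of the higher value was not tested.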

How the results depend on the processing

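No called single gene followed turned its direction. Some list medians near 0 did: with the LIF labels exchanged that of RA-induced genes went from 0.00 to -0.10, of Y-linked genes from -0.03 to 0.06 and of trophectoderm from 0.01 to -0.04, and without both replicate 1 arrays that of X inactivation from 0.02 to -0.04. Socs3, not called, went from 0.08 to -1.08 without wild-type replicate 1. The 528 calls (208 higher, 320 lower) became 1069 with the replicate block (458 and 611). That block gives each replicate number the same effect in all 6 groups of the fit, and is not a pairing of the control arrays alone. With the block and the LIF labels exchanged, an alternative chosen after seeing the data, the calls became 1250 (537 and 713). The 528 became 139 (56 and 83) without both replicate 1 control arrays, 14 (5 and 9) in a fit of the 6 control arrays alone, 201 (47 and 154) with chromosomes 8 and 19 left out before the adjustment, and 135 (21 and 114) with a 2-fold minimum. Without the filter on dim genes 376 were called, 207 of them lower. Leaving out single control arrays gave 253 to 425 calls, 104 to 163 higher and 149 to 262 lower. The 30 called list genes became 52 with the block, 53 with the block and the labels exchanged, 13 without the filter, 12 without both replicate 1 arrays, 0 in the 6 arrays alone, where limma called 14 genes in all, and 13 to 22 with single arrays left out. The median of chromosome 19 was 0.51 with the filter at 200 units. For the 115 single genes followed, 1656 of 2149 combinations of gene and alternative kept direction and side of the threshold, 466 lost the call in the same direction and 27 gained it. Exchanging wild-type numbers 1 and 2 under the block gave 703 calls. The cause of these shifts was not tested. Signal over background limits the dim genes: 9 of the lower genes were under 50 units on all knockout arrays, so that their differences are lower bounds.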
